A study of Mus musculus with 9 samples.

Results

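The SIN3, HDAC and NCoR corepressors described here are 9 genes, Sin3a, Sin3b, Hdac1, Hdac2, Hdac3, Ncor1, Tbl1x, Tbl1xr1 and Gps2. They were chosen by name as corepressor partners of the MTG proteins, the family of CBFA2T2, with earlier results of these data known. All 9 were found among the 33233 genes of the count files, 1 row each, and all 9 passed the filter on low counts. RNA was sequenced from KH2 mouse embryonic stem cells, a line kept in medium with Lif on feeder cells that were taken off before extraction. The 3 groups had 3 libraries each: wild type, CBFA2T2 knockout and PRDM14 knockout. All groups share the KH2 line, Lif and feeders, and the labels do not say how either gene was disrupted or how many clones each group holds. The submitters call the 3 libraries of a group biological replicates.

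MTG proteins do not bind DNA sequence themselves. They are recruited by transcription factors and in turn bring in large repressor complexes. SIN3A and SIN3B are alternative scaffolds that hold the deacetylases HDAC1 and HDAC2, which remove acetyl groups from histone tails and also sit in the NuRD and CoREST complexes. NCOR1 is the scaffold of a separate complex in which TBL1X, TBL1XR1 and GPS2 surround HDAC3. In mouse embryos Sin3a is needed around implantation and Sin3b only later in gestation, and mouse embryonic stem cells lose viability when both Hdac1 and Hdac2 are deleted.

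The libraries held 10309196 to 20129490 counts, of which the 9 genes took 0.144% to 0.164%. The targeted gene Cbfa2t2 was at 99.2, 44.9 and 84.8 CPM (counts scaled to library size, with scaling between libraries) in replicates 1 to 3 of the CBFA2T2 knockout, and at 160 to 177 CPM in wild type. Prdm14 was at 41.4, 42.2 and 63.5 CPM in the libraries labelled PRDM14 knockout and at 14.6 to 18.4 CPM in wild type, so its RNA was higher, not lower, under that label. It was also higher in the CBFA2T2 knockout, at 55.0, 56.3 and 67.6 CPM (log2 fold change 1.89 ± 0.17, adjusted p = 6.83e-06), so the wild-type libraries stood apart from all 6 others in this gene. Every direction given below against wild type or for the libraries labelled PRDM14 knockout therefore rests on the labels. The 8 embryonic stem cell markers were detected in every library, with a summed level of 4500 to 4551 CPM in wild type, 2530 to 3113 in the CBFA2T2 knockout and 3299 to 4074 in the libraries labelled PRDM14 knockout. Of these 8, 6 were called lower and 1 higher in the CBFA2T2 knockout, at an adjusted p under 0.05 as defined below. In the libraries labelled PRDM14 knockout 5 were called lower and 1 higher. Over all genes tested, 18.9% were called higher and 19.6% lower in the CBFA2T2 knockout. Under the PRDM14 label it was 14.6% and 15.3%. The marker counts that follow are to be read beside these shares. Some markers of other cells were higher than in wild type. The 12 markers of feeder fibroblasts summed to 1432 to 1480 CPM in wild type, 1683 to 2855 in the CBFA2T2 knockout and 1625 to 2917 in the libraries labelled PRDM14 knockout, and 8 trophectoderm markers to 104 to 125, 591 to 1421 and 215 to 471 CPM. Most of the feeder sum in wild type was Fn1 (968 to 1057 CPM), which was called in neither comparison. Most of the trophectoderm sum in the CBFA2T2 knockout was Krt8 (269 to 813 CPM) and Krt18 (171 to 469 CPM). The 8 primitive endoderm markers summed to 65.6 to 75.5, 48.4 to 85.6 and 49.7 to 137 CPM. Of 11 feeder markers tested, 4 were called higher in the CBFA2T2 knockout and 3 in the libraries labelled PRDM14 knockout, and none lower. Called in both were Col1a1 (means of 98.8 CPM in wild type, 374 in the CBFA2T2 knockout and 382 under the PRDM14 label), Acta2 (37.2, 197 and 157) and Tagln (19.1, 238 and 112). Thy1 was called in the CBFA2T2 knockout alone. The other feeder markers tested were called in neither comparison. Of 7 trophectoderm markers tested, 6 were higher and 1 lower in the first and 4 higher in the second, and of 8 primitive endoderm markers 2 were higher and 1 lower, and 1 higher and 1 lower. None of these 28 markers of other cells was at 0 in all 9 libraries; Elf5 was at 0 in 6 libraries and Lum in 2. Fewer cells of a type and less RNA per cell cannot be told apart in such data, and the part of these cells in the results below was not tested.

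Against wild type the 2 SIN3 scaffolds moved in opposite directions, in the CBFA2T2 knockout as in the libraries labelled PRDM14 knockout: Sin3a fell and Sin3b rose. Hdac2 and Ncor1 fell as well, and Tbl1x rose. The remaining genes, Hdac1, Hdac3, Tbl1xr1 and Gps2, passed the test in neither comparison. A gene was called when its p-value from edgeR's quasi-likelihood test, adjusted by Benjamini-Hochberg over all 16532 genes tested, was under 0.05. Of the 9 genes, 5 were called in the CBFA2T2 knockout, 2 higher and 3 lower, where 38.5% of all genes were called. In the libraries labelled PRDM14 knockout 5 were called, again 2 higher and 3 lower, where 29.9% of all genes were called. These 2 comparisons share the wild-type libraries. The median absolute log2 fold change of the 9 genes was 0.31 against 0.34 over all genes in the CBFA2T2 knockout, and 0.25 against 0.29 in the libraries labelled PRDM14 knockout. Without wild-type replicate 2 or wild-type replicate 3 the count in the libraries labelled PRDM14 knockout was 3 in place of 5, because Hdac2 and Tbl1x lost their calls.

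**Figure D1:**
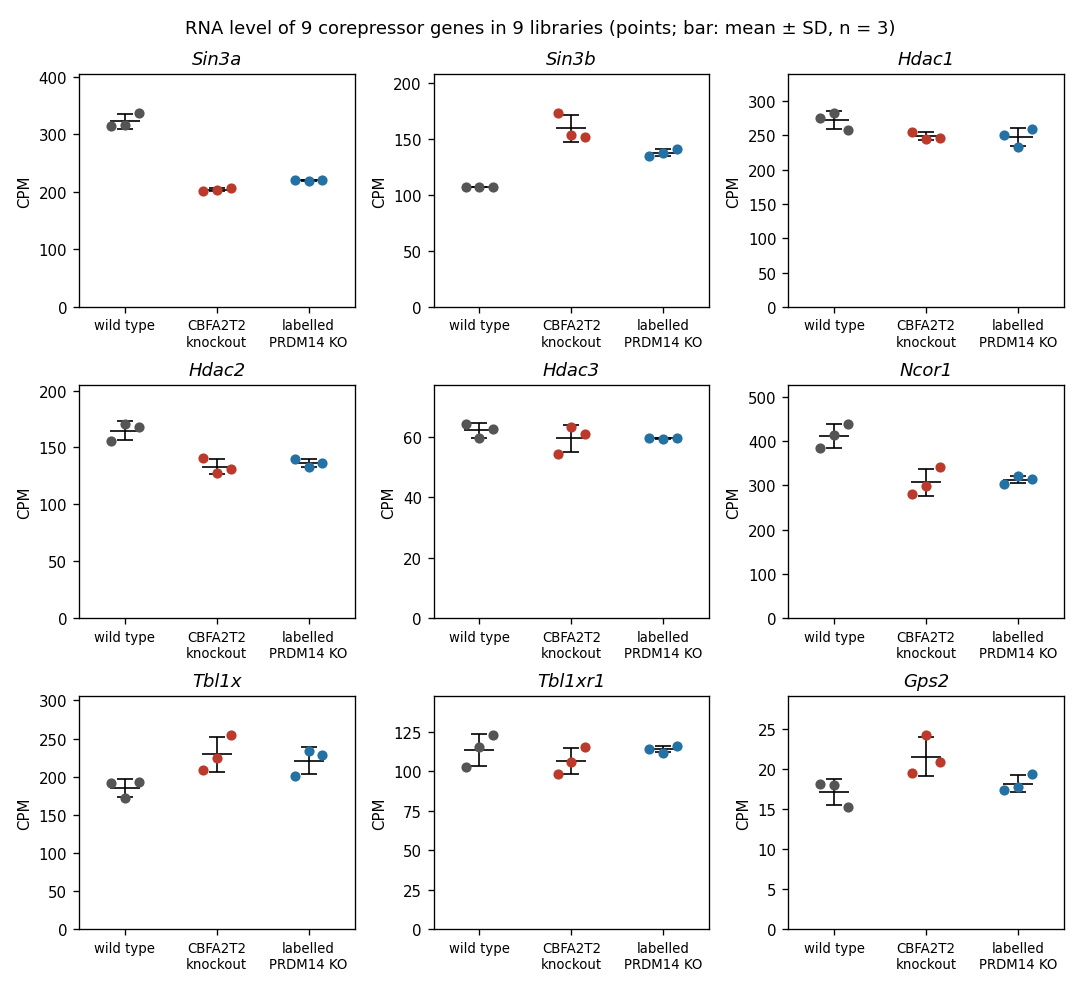
RNA level of each of the 9 genes in CPM (vertical axis, from 0) in the 3 wild-type, 3 CBFA2T2 knockout and 3 PRDM14-labelled libraries; points are libraries, bars the mean and SD. Sin3a stands at 315 to 338 CPM in wild type and at 202 to 221 CPM in all 6 other libraries, while Sin3b stands at 107 CPM in wild type and at 134 to 173 CPM in the others.

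The promoters of the 5 called genes are shown because these genes changed in both comparisons, 3 of them downward (Sin3a, Hdac2, Ncor1) and 2 upward (Sin3b, Tbl1x). Each sequence is the RefSeq window of 250 bases before and 50 after an annotated start (GRCm38.p6), written along the gene's strand, and capitals mark matches to the E box CANNTG, the motif of the E proteins that recruit MTG proteins. Sin3a (+ strand) is at chr9:57071790-57072089, Hdac2 (+) at chr10:36974294-36974593, Ncor1 (- strand) at chr11:62457283-62457582, Sin3b (+) at chr8:72723020-72723319 and Tbl1x (+) at chrX:77510977-77511276.
Sin3a: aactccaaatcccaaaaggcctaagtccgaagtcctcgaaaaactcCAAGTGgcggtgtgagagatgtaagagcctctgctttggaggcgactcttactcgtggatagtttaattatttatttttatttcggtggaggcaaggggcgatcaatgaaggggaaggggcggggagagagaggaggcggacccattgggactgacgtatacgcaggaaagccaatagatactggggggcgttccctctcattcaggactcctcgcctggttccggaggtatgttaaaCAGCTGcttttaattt
Hdac2: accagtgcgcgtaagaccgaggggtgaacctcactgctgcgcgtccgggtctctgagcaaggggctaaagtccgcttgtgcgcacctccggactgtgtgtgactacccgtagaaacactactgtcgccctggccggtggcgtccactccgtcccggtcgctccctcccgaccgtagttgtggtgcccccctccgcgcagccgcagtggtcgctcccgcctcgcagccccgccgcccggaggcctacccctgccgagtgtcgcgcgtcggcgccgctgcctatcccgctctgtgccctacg
Ncor1: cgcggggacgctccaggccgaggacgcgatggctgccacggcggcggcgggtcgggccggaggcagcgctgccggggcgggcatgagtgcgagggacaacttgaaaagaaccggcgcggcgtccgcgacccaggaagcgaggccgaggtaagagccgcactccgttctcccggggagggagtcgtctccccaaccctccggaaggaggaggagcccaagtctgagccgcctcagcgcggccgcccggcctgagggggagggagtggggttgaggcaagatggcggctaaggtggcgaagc
Sin3b: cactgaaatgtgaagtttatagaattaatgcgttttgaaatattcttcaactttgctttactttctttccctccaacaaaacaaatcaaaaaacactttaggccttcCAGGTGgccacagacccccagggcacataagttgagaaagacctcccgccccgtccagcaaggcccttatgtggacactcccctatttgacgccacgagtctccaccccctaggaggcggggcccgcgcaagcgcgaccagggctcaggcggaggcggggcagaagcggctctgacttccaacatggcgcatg
Tbl1x: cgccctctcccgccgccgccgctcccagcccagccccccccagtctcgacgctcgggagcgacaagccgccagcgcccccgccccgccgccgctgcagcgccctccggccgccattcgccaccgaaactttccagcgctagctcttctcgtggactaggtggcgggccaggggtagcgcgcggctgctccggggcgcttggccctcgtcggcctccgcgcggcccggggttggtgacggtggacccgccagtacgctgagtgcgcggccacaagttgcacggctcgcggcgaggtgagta
The E box was found at 2 places in the Sin3a window and at 1 place in that of Sin3b, and not in the windows of Hdac2, Ncor1 and Tbl1x, against 72.3% of all 32851 RefSeq promoter windows with a match. The GC box GGGCGG, searched on both strands, was present in all 5 windows and in 35.7% of all windows, and CCAAT, on both strands, in that of Sin3a alone of the 5 and in 37.4% of all. The windows of Tbl1x, Ncor1 and Hdac2 were rich in G and C (75.3%, 72.3% and 69.7%), and those of Sin3b (53.3%) and Sin3a (50%) were near the median of all windows, 52.7%. No share was counted for windows of like G and C content or for windows of genes expressed in these cells. The shares over all windows therefore cannot tell whether these 5 genes differ from such genes. A match is a match of letters only, and RefSeq starts can lie apart from the annotated one, by 1209 bases for Ncor1 and 214 for Tbl1x. Of the 9 genes, 7 have such a window in the table used. Sin3a and Ncor1 have 2 windows each there, of which the one nearer the annotated start is shown.

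Sin3a (ENSMUSG00000042557, chromosome 9, 57072040 to 57128366, + strand, GRCm38) encodes the main scaffold of the SIN3 complex, a protein with paired amphipathic helices that dock transcription factors. It was at 315, 316 and 338 CPM in wild-type replicates 1 to 3. The 3 CBFA2T2 knockout libraries held 202, 204 and 206 CPM, and those labelled PRDM14 knockout held 221, 218 and 220.5 CPM. All 6 knockout libraries lay below the lowest wild-type library, and all 3 of the CBFA2T2 knockout below the other 3. The wild-type mean was 323 ± 12.9 CPM, against 204 ± 1.901 and 219.8 ± 1.56 CPM (SD, n = 3 each). Sin3a fell 1.58-fold in the CBFA2T2 knockout (-0.66 ± 0.06 on the log2 scale, with its SE, and adjusted p = 5.85e-06) and 1.47-fold in the libraries labelled PRDM14 knockout (-0.55 ± 0.06, adjusted p = 3.70e-05). It had the lowest p of the 9 genes in both, at rank 210 and 278 of all genes. The annotated Sin3a gene is overlapped on the other strand by Man2c1os, which had 1 to 9 counts per library.

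Sin3b (ENSMUSG00000031622, chromosome 8, 72723288 to 72758203, + strand) encodes the alternative scaffold. It was at 107 CPM in each of the 3 wild-type libraries. Its level was 173, 154 and 151 CPM in the CBFA2T2 knockout and 134, 137 and 141 CPM in the libraries labelled PRDM14 knockout. The 3 groups did not overlap, and the CBFA2T2 knockout was the highest. Means were 107 ± 0.312, 159 ± 12.1 and 138 ± 3.16 CPM (SD, n = 3 each). Sin3b rose 1.49-fold in the CBFA2T2 knockout (0.57 ± 0.07 log2, adjusted p = 5.19e-05) and 1.28-fold in the libraries labelled PRDM14 knockout (0.36 ± 0.07, adjusted p = 0.00240).

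The ratio of Sin3a to Sin3b counts within a library does not depend on how libraries are scaled to each other. It was 2.94 to 3.14 in wild type, 1.17 to 1.36 in the CBFA2T2 knockout and 1.57 to 1.64 in the libraries labelled PRDM14 knockout. The ranges were far apart, and the 2 knockout groups were also separate. On the log2 scale the mean ratio was 1.59 ± 0.05 in wild type, 0.36 ± 0.12 in the CBFA2T2 knockout and 0.68 ± 0.04 in the libraries labelled PRDM14 knockout (SD, n = 3 each), a difference from wild type of -1.23 and -0.91. An exact permutation test of the F statistic over the 3 groups gave p = 0.00357, the smallest the 9 libraries allow, or p = 0.0143 adjusted by Benjamini-Hochberg over the 4 ratios tested, of which 3 are given. Permuted only among libraries of the same replicate number, p was 0.0278, the smallest that design allows, or 0.111 adjusted over the 4 ratios. With the other ratios at a higher p, this ratio could not have passed there after adjustment, so that test cannot decide. Leaving out each library in turn, the difference in the CBFA2T2 knockout ran from -1.28 to -1.17. Between any 2 groups of 3 libraries the exact test cannot go below p = 0.1. Taken per kilobase of exon, so that the genes can be added, the sum of both scaffolds was 74.5 ± 2.44 CPM per kilobase in wild type, 59.6 ± 1.38 in the CBFA2T2 knockout and 59.5 ± 0.490 in the libraries labelled PRDM14 knockout (SD, n = 3 each).

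**Figure D2:**
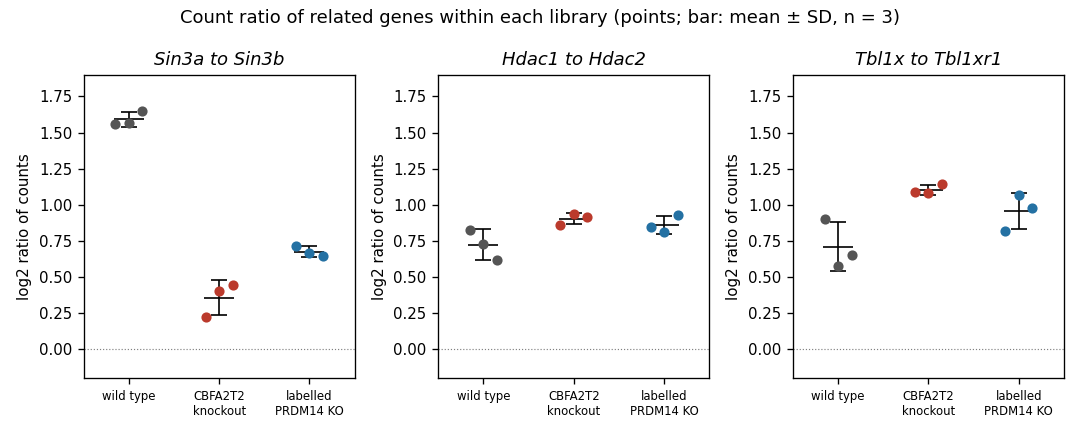
Log2 ratio of the counts of 3 pairs of related genes in each library (points), with the mean and SD of 3 libraries per group. For Sin3a to Sin3b the wild-type mean of 1.59 stands above 0.36 in the CBFA2T2 knockout and 0.68 in the libraries labelled PRDM14 knockout; the other 2 pairs differ by less.

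Hdac2 (ENSMUSG00000019777, chromosome 10, 36974544 to 37001889, + strand), one of the twin deacetylases of the SIN3, NuRD and CoREST complexes, fell modestly. It was at 155, 171 and 168 CPM in wild-type replicates 1 to 3, at 141, 128 and 131 CPM in the CBFA2T2 knockout, and at 140, 133 and 136 CPM in the libraries labelled PRDM14 knockout. Every knockout library was below every wild-type library, and the knockouts overlapped each other. The log2 fold change was -0.31 ± 0.07 in the CBFA2T2 knockout (adjusted p = 0.00443) and -0.27 ± 0.07 in the libraries labelled PRDM14 knockout (adjusted p = 0.0117). The second call was lost without wild-type replicate 2 (-0.24, adjusted p = 0.0643) and without wild-type replicate 3 (-0.25, adjusted p = 0.0565), within a range of 0.00426 to 0.0643 over 17 alternatives.

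Hdac1 (ENSMUSG00000028800, chromosome 4, 129516104 to 129542713, - strand), the partner of Hdac2, was at 276, 283 and 258 CPM in wild type, at 256, 245 and 247 CPM in the CBFA2T2 knockout, and at 251, 233 and 259 CPM in the libraries labelled PRDM14 knockout. It was below wild type in all 3 CBFA2T2 knockout libraries, by little, and overlapped wild type under the PRDM14 label. Neither difference was called (-0.13 ± 0.07, adjusted p = 0.168; -0.14 ± 0.07, adjusted p = 0.164), with 95% intervals of -0.28 to 0.02 and -0.29 to 0.02. The Hdac1 counts are uncertain. Of the 3536 distinct stretches of 50 bases in the annotated Hdac1 transcripts (GENCODE M21), 35.3% also occur in transcripts of other genes, mostly in the processed pseudogene Gm10093, which holds 31.7%. Gm10093 was itself listed at 93.3, 95.4 and 94.8 CPM in wild type, at 54.7, 66.5 and 76.1 CPM in the CBFA2T2 knockout, and at 77.3, 77.0 and 94.3 CPM in the libraries labelled PRDM14 knockout. It fell in the CBFA2T2 knockout (-0.53 ± 0.11, adjusted p = 0.00273) and was not called in the other (-0.19 ± 0.11, adjusted p = 0.230). With the counts of Gm10093 added to those of Hdac1, the sum was called lower in the CBFA2T2 knockout (-0.22, adjusted p = 0.0235, the lowest of a range up to 0.439 over 17 alternatives) and not in the libraries labelled PRDM14 knockout (-0.15, adjusted p = 0.124).

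The ratio of Hdac1 to Hdac2 counts was 1.53 to 1.78 in wild type, 1.82 to 1.92 in the CBFA2T2 knockout and 1.75 to 1.901 in the libraries labelled PRDM14 knockout. It did not pass the exact permutation test over the 3 groups (p = 0.0536, adjusted p = 0.0714 over the 4 ratios). Without wild-type replicate 1 the adjusted permutation p was 0.0143, and with Gm10093 added to Hdac1 it was 0.339. Added per kilobase of exon, Hdac1 and Hdac2 came to 116 ± 4.16 CPM per kilobase in wild type, 102 ± 3.11 in the CBFA2T2 knockout and 102 ± 4.30 in the libraries labelled PRDM14 knockout (SD, n = 3 each).

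Hdac3 (ENSMUSG00000024454, chromosome 18, 37935844 to 37954988, - strand) is the catalytic subunit of the NCoR complex. It was at 64.2, 59.4 and 62.6 CPM in wild type, at 54.4, 63.0 and 60.9 CPM in the CBFA2T2 knockout, and at 59.6, 59.2 and 59.6 CPM in the libraries labelled PRDM14 knockout. The groups overlapped, and the log2 fold changes of -0.06 ± 0.08 in both comparisons were not called (adjusted p = 0.587 and 0.608). Both 95% intervals ran from -0.25 to 0.12, so a smaller change was not detectable with 3 libraries a group.

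Ncor1 (ENSMUSG00000018501, chromosome 11, 62316426 to 62458541, - strand), the scaffold that activates HDAC3 and binds unliganded nuclear receptors, fell in both comparisons with wild type. It was at 385, 414 and 439 CPM in wild-type replicates 1 to 3, at 280.0, 299.5 and 341 CPM in the CBFA2T2 knockout, and at 304, 321 and 315 CPM in the libraries labelled PRDM14 knockout. No knockout library reached the lowest wild-type value. The log2 fold change was -0.43 ± 0.08 in the CBFA2T2 knockout (adjusted p = 0.00111) and -0.40 ± 0.08 in the libraries labelled PRDM14 knockout (adjusted p = 0.00254). Ncor1 shares 82 exonic bases with Pigl on the other strand, which had 423 to 774 counts per library against 4145 to 6739 for Ncor1, and the strand setting of the counting is not known.

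Tbl1x (ENSMUSG00000025246, chromosome X, 77511013 to 77662983, + strand) encodes a WD40-repeat subunit that exchanges corepressors for coactivators. It was at 192, 172 and 193 CPM in wild type, at 209, 224 and 255 CPM in the CBFA2T2 knockout, and at 201, 234 and 228 CPM in the libraries labelled PRDM14 knockout. All knockout libraries were above all wild-type libraries, the lowest by a narrow margin. The rise was 0.30 ± 0.09 log2 in the CBFA2T2 knockout (adjusted p = 0.0166) and 0.25 ± 0.09 in the libraries labelled PRDM14 knockout (adjusted p = 0.0481). The first call was lost without CBFA2T2 knockout replicate 3 (0.22, adjusted p = 0.0755) and without wild-type replicate 2 (0.26, adjusted p = 0.0767), with a range of 0.00366 to 0.0767 over 17 alternatives. The second was lost without PRDM14-labelled replicate 2 or 3 (adjusted p = 0.130 and 0.0960), without wild-type replicate 1, 2 or 3 (0.0777, 0.181 and 0.0757), without CBFA2T2 knockout replicate 2 (0.0536) and with limma-voom (0.0588). Tbl1x lies on the X chromosome, where 17.2% of 934 genes tested were called higher in the CBFA2T2 knockout, against 19.0% of the genes elsewhere. Under the PRDM14 label it was 13.4% against 14.6%. The median log2 fold change was 0.048 on X and 0.005 elsewhere in the CBFA2T2 knockout, and 0.044 and 0.019 under the PRDM14 label. The part of the X chromosome in the rise of Tbl1x was not tested.

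Tbl1xr1 (ENSMUSG00000027630, chromosome 3, 22076652 to 22216594, + strand), the autosomal relative of Tbl1x, was at 103, 115 and 122.8 CPM in wild type, at 98.3, 106 and 115 CPM in the CBFA2T2 knockout, and at 114, 112 and 116 CPM in the libraries labelled PRDM14 knockout. The groups overlapped and neither comparison was called (-0.09 ± 0.09, adjusted p = 0.411; 0.00434 ± 0.0851, adjusted p = 0.977). The ratio of Tbl1x to Tbl1xr1 counts was 1.49 to 1.87 in wild type, 2.12 to 2.21 in the CBFA2T2 knockout and 1.77 to 2.09 in the libraries labelled PRDM14 knockout. An exact permutation test over the 3 groups gave p = 0.0393, or 0.0714 adjusted over the 4 ratios. Leaving out each library in turn, the adjusted permutation p ran from 0.00714, without wild-type replicate 1, to 0.143. Permuted only among libraries of the same replicate number, it was 0.167.

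Gps2 (ENSMUSG00000023170, chromosome 11, 69913888 to 69916591, + strand), the small subunit that joins NCOR1 to the TBL1 proteins, had the fewest counts of the 9 genes, 180 to 505 per library. It was at 18.05, 17.99 and 15.2 CPM in wild type, at 19.4, 24.2 and 20.9 CPM in the CBFA2T2 knockout, and at 17.4, 17.7 and 19.4 CPM in the libraries labelled PRDM14 knockout. The CBFA2T2 knockout libraries were all above wild type, and the difference of 0.34 ± 0.13 log2 missed the threshold (adjusted p = 0.0522). It passed under 6 of 17 alternatives, among them without CBFA2T2 knockout replicate 1 (0.42, adjusted p = 0.0379), without PRDM14-labelled replicate 3 (0.35, adjusted p = 0.0473) and with the DESeq2 Wald test (0.34, adjusted p = 0.0496), over a range of 0.0333 to 0.211. In the libraries labelled PRDM14 knockout it was not called (0.09 ± 0.13, adjusted p = 0.635).

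**Figure D3:**
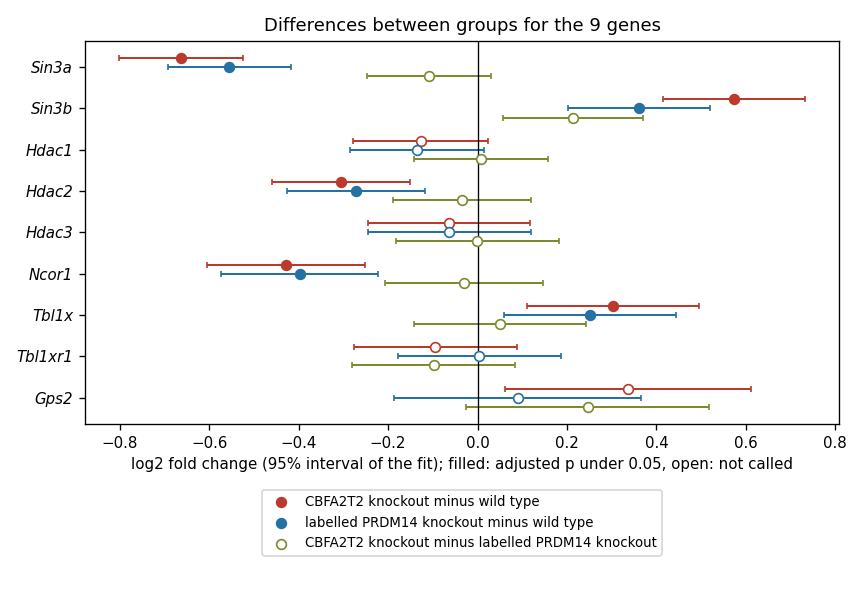
Log2 fold change of the 9 genes in the 3 comparisons (horizontal axis), with 95% intervals from the edgeR fit; filled points were called at an adjusted p under 0.05 and open points were not. Sin3a is lowest (-0.66 and -0.55) and Sin3b highest (0.57 and 0.36) against wild type, and all 9 points of the comparison between knockouts are open.

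For 7 of the 9 genes all CBFA2T2 knockout libraries lay on one side of all wild-type libraries, as did 53.7% of all genes, and for 5 of the 9 under the PRDM14 label, as did 45.1%. Levels per length placed the genes in an order that the knockouts altered. In wild type Hdac1 was the highest at 79.0 ± 3.86 CPM per kilobase of exon, followed by Sin3a at 60.0 ± 2.40, Hdac2 at 36.8 ± 1.83, Ncor1 at 32.2 ± 2.13 and Tbl1x at 26.3 ± 1.69 (SD, n = 3 each). Hdac3 (15.3 ± 0.609) and Sin3b (14.6 ± 0.0424) followed, and Tbl1xr1 (12.7 ± 1.14) and Gps2 (10.6 ± 1.02) came last. The wild-type libraries of neighbours in this order did not overlap, by the narrowest margins for Hdac3 and Sin3b (14.64 against 14.61) and for Tbl1xr1 and Gps2 (11.5 against 11.3). In the CBFA2T2 knockout Tbl1x (32.5 ± 3.32) came next after Sin3a (37.9 ± 0.353), with libraries that overlapped those of Hdac2 (29.8 ± 1.499). There Sin3b (21.7 ± 1.65) overlapped Ncor1 (24.0 ± 2.43) and stood clear of Hdac3 (14.7 ± 1.11), while Tbl1xr1 (11.9 ± 0.943) was not clear of Gps2 (13.4 ± 1.53). Under the PRDM14 label Tbl1x (31.4 ± 2.46) and Hdac2 (30.5 ± 0.718) overlapped as well. Exon lengths were those of the annotation, so the order depends on which transcripts these cells use.

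**Figure D4:**
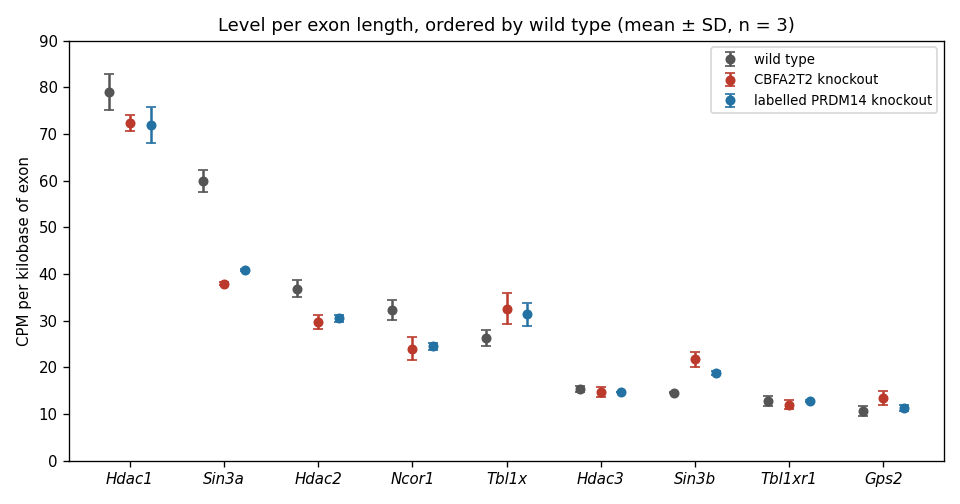
Level of each gene in CPM per kilobase of annotated exon (vertical axis, from 0), ordered by the wild-type mean; points are means and bars the SD of 3 libraries. Sin3a drops from 60.0 in wild type to 37.9 and 40.8, and Sin3b moves from 14.6 to 21.7 and 18.7.

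None of the 9 genes was called by edgeR between the CBFA2T2 knockout and the libraries labelled PRDM14 knockout, where 0.853% of all genes were called, so that few or no calls among 9 genes say nothing particular to them, and 0 was also the count with the DESeq2 Wald test and limma-voom. At an unadjusted p under 0.05 there was 1, Sin3b (0.21 ± 0.07 log2 higher in the CBFA2T2 knockout, 95% interval 0.06 to 0.37, adjusted p = 0.173). All libraries of one knockout lay on one side of the other for Sin3a, Sin3b and Gps2, 3 of 9 genes, against 17.8% of all genes. Sin3a was lower by 0.11 ± 0.06 log2 in the CBFA2T2 knockout (95% interval -0.25 to 0.03, adjusted p = 0.463), and Gps2 was higher by 0.25 ± 0.13 (-0.03 to 0.52, adjusted p = 0.386). For the other 6 genes the differences lay between -0.10 and 0.05, with intervals within -0.28 and 0.24.

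The 9 genes were compared over the 9 libraries by the root mean square difference of their log2 CPM, each gene centred on its own mean. Sin3a was closest to Ncor1 (0.12) and Hdac2 (0.16), and farthest from Sin3b (0.53). Sin3b was closest to Tbl1x (0.17) and Gps2 (0.18). Among 10446 other genes with a mean of at least 5 CPM, the profiles nearest to Sin3a were those of the proteasome activator Psme3 (0.0337) and Wdr82 (0.0403), a subunit of histone methyltransferase complexes. Nearest to Sin3b were the pseudogene Rpsa-ps10 (0.0527) and Tram1 (0.0563), to Hdac2 Ltn1 (0.0308) and Tmpo (0.0362), to Ncor1 Rtf1 (0.0463) and Polr3f (0.0490), and to Tbl1x Large (0.0495) and Tgfbr1 (0.0511). Those of Hdac1 were Gtf2f1 (0.0266) and Eif3l (0.0381), of Hdac3 Ntan1 (0.0429) and Tacc3 (0.0443), of Tbl1xr1 Opa1 (0.0440) and Tbc1d14 (0.0441), and of Gps2 Fam120b (0.0677) and Dhrs1 (0.0724). From the lowest to the highest library Hdac1 spanned 0.28 log2 and Hdac3 0.24, against 0.74 for Sin3a. A gene that varies little lies close to any other such gene. Each gene named is the nearest of many, and shared regulation was not tested.

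Other subunits of these and related complexes were counted in 9 lists of 71 genes, all of which were tested. In the CBFA2T2 knockout 7 rose and 30 fell, with a median log2 fold change of -0.17 against 0.01 over all genes. In the libraries labelled PRDM14 knockout 5 rose and 28 fell, with a median of -0.21 against 0.02. Of all genes, 18.9% were called higher and 19.6% lower in the first comparison, and 14.6% and 15.3% in the second. None of the 71 was called between the knockouts by edgeR, and the DESeq2 Wald test called 1, an acetyltransferase. Without PRDM14-labelled replicate 2 edgeR called 2 deacetylases, 1 NuRD gene and 1 acetyltransferase, and without CBFA2T2 knockout replicate 3 it called 1 acetyltransferase.

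Among 18 further SIN3 subunits the CBFA2T2 knockout had 7 that fell, 1 that rose and 10 without a call. Fam60a, a SIN3 subunit abundant in embryonic stem cells, fell from 440 CPM to a mean of 208 CPM (-1.09 ± 0.17 log2, adjusted p = 0.000655) and to 273 CPM in the libraries labelled PRDM14 knockout (-0.69 ± 0.16, adjusted p = 0.0104). The reader protein Phf12 fell by 0.41 and 0.43 (log2). Rbbp4, a histone-binding subunit, fell by 0.36 in the CBFA2T2 knockout (adjusted p = 0.000710) and by 0.21 in the libraries labelled PRDM14 knockout (adjusted p = 0.0275). Ing1, a reader of methylated histone H3, fell by 0.37 (adjusted p = 0.00178) and 0.36 (adjusted p = 0.00307). The 1 gene that rose was Rbbp7, the relative of Rbbp4, from 318 to 413 and 375 CPM (0.38 and 0.24 log2, adjusted p = 0.00100 and 0.0210), named after its values were seen. Under the PRDM14 label 7 also fell and 1 rose. The total of 8 called was 5 without CBFA2T2 knockout replicate 2 or wild-type replicate 2 in the CBFA2T2 comparison. It was 3 without wild-type replicate 2 or 3, and 5 without CBFA2T2 knockout replicate 1 or 2, PRDM14-labelled replicate 3 or wild-type replicate 1, in the other, where it was also 5 with no filter on low counts.

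NuRD, the remodelling complex that also holds HDAC1 and HDAC2, had 8 of 11 listed genes lower and 0 higher in the CBFA2T2 knockout. In the libraries labelled PRDM14 knockout 7 were lower and 0 higher. Of all genes, 19.6% were called lower in the CBFA2T2 knockout and 15.3% under the PRDM14 label. The 11 listed NuRD genes leave out Rbbp4 and Rbbp7, subunits shared with NuRD that were counted with SIN3. Rbbp7 was called higher in both comparisons and Rbbp4 lower in both. The ATPase Chd4 fell from 1191 to 796 and 788 CPM (-0.58 ± 0.09 and -0.60 ± 0.09 log2, adjusted p = 0.000194 and 0.000244), and the structural subunit Mbd3 fell by 0.55 and 0.49. Gatad2b fell by 0.53 and 0.44 and Gatad2a by 0.31 and 0.44, in the same order of comparisons. Without wild-type replicate 3 the count in the CBFA2T2 knockout was 5. CoREST genes fell in 5 of 9 cases in each comparison and 1 rose. Zmym3 (-0.93 and -0.79), Rcor2 (-0.67 and -0.70) and Phf21a (-0.77 and -1.01) had the lowest adjusted p. Without wild-type replicate 3 the count called in the libraries labelled PRDM14 knockout was 3 in place of 6.

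Among the 8 other deacetylases the calls went both ways. In the CBFA2T2 knockout 4 were called, where 38.5% of all genes were called. Under the PRDM14 label 2 were called, where 29.9% of all genes were called. For 8 genes these counts are near those shares. Hdac5 (0.58 ± 0.12 log2, adjusted p = 0.00206) and Hdac11 (0.65 ± 0.17, adjusted p = 0.00840) were among the 3 that rose in the CBFA2T2 knockout, and Hdac4 was the 1 that fell (-0.54 ± 0.14, adjusted p = 0.00875). Under the PRDM14 label Hdac11 rose (0.61), Hdac4 fell (-0.47) and Hdac5 was not called (0.21, adjusted p = 0.223), and the count of 2 was 1 without PRDM14-labelled replicate 1 or 3 or wild-type replicate 1 or 3 and 0 without wild-type replicate 2. Coro2a, an actin-binding protein found with NCoR, rose from 9.43 to 16.9 and 17.7 CPM (0.84 ± 0.21 and 0.90 ± 0.21, adjusted p = 0.00742 and 0.00650). The 4 genes of MiDAC, a mitotic deacetylase complex, were not called: the lowest p was that of Dnttip1 in the CBFA2T2 knockout (0.26, adjusted p = 0.131) and of Zfp541 in the other (-0.72, adjusted p = 0.406). Of the other MTG genes, Cbfa2t3 was called higher in the libraries labelled PRDM14 knockout at 1.57 against 0.577 CPM (1.41 ± 0.40, adjusted p = 0.0179), a call lost without PRDM14-labelled replicate 3 or wild-type replicate 1 or 2. In the CBFA2T2 knockout it was at 0.842 CPM (0.51 ± 0.42, adjusted p = 0.370).

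Groucho and CtBP corepressors, which do not belong to the SIN3 or NCoR complexes, held the largest falls of the 71 genes. Tle4 went from 303 to 77.4 and 95.9 CPM (-1.97 ± 0.17 and -1.66 ± 0.17 log2, adjusted p = 1.899e-05 and 8.09e-05) and Ctbp2 from 355 to 135 and 127 CPM (-1.39 ± 0.10 and -1.48 ± 0.10, adjusted p = 4.28e-07 and 4.39e-07). Tle1 fell by 0.38 and 0.27. In all 4 of the 8 fell and 1 rose in the CBFA2T2 knockout, and 3 fell and 0 rose in the libraries labelled PRDM14 knockout, with 5 called there without PRDM14-labelled replicate 1. Of the 9 acetyltransferases, the enzymes that act against deacetylases, 5 fell and 0 rose in each comparison. Beside these 2 lists, 19.6% of all genes were called lower in the CBFA2T2 knockout and 15.3% under the PRDM14 label. Kat2a fell by 0.79 and 0.69 (log2) and Kat2b by 1.17 and 0.81, Kat6b fell by 0.62 and 0.31, and Ep300 by 0.37 and 0.38. In the libraries labelled PRDM14 knockout the count was 3 without wild-type replicate 2 or 3. Leaving out each library in turn, it was 4 to 5 in the CBFA2T2 knockout.

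Between the knockouts the gene with the lowest p was not called in 8 of the lists. The log2 differences were -0.15 for Rbbp4, 0.37 for Hdac5, 0.50 for Mbd2, 0.24 for Phf21a, 0.25 for Dnttip1, -0.90 for Cbfa2t3, -0.31 for Tle4 and -0.31 for Kat6b, with adjusted p from 0.103 to 0.429.

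**Figure D5:**
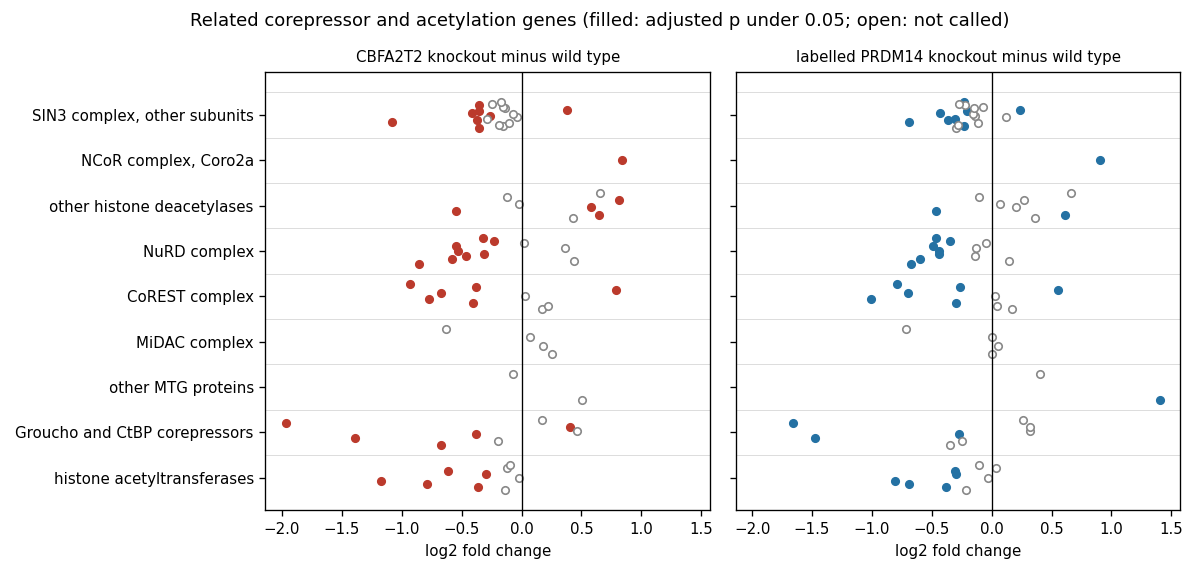
Log2 fold change against wild type (horizontal axis) of genes of the 9 lists in the CBFA2T2 knockout (left) and the libraries labelled PRDM14 knockout (right); each point is a gene, filled where called at an adjusted p under 0.05. Filled points lie mostly left of 0, with Tle4 and Ctbp2 farthest left, and the deacetylases lie on both sides.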

How the data were processed

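Polyadenylated RNA went into strand-specific dUTP libraries, per the labels' protocols. The deposited files hold raw counts for each Ensembl gene, without normalization. Bowtie (no version) and mm9 appear in the submitters' processing notes. The gene coordinates, however, matched GRCm38: GENCODE M21 held 32860 of the IDs, each on the chromosome given, and 78.1% with identical ends. Which program counted the reads, and with which strand setting, is not given in the sources used here, so reads shared between genes may be split or lost.

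Groups and replicate numbers came from titles. Counts were filtered with filterByExpr, scaled by TMM and fitted with edgeR 4.0.16 (robust quasi-likelihood, R 4.3.3) over all 9 libraries, which left 16532 genes. Tests were two-sided with Benjamini-Hochberg adjustment. The SE is the absolute log2 fold change over the square root of F. Profiles used log2 CPM with a prior count of 2, and ratios a pseudocount of 0.5. Scripts were tested on simulated data. Without molecular identifiers, counting error is only a lower bound, and p-values set differences between groups against the spread between these libraries.

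The members and lists were chosen with earlier results of these data known. Named genes were the 9 members, the targeted genes, from each list and comparison up to 3 called genes ranked by adjusted p (where none was called, the 1 with the lowest p), and for each member the 2 genes nearest in profile. Gm10093, Rbbp7, Elf5, Lum, Fn1, Col1a1, Acta2, Tagln, Thy1, Krt8 and Krt18 were named after their values were seen. Alternatives were DESeq2 1.42.0 (size factors, Wald test), 2 other filters, limma 3.58.1 voom, a fit of only the groups compared, a replicate block, and leaving out each library. One gene of the lists, and the ratio that uses it, stayed in the fits and counts and is not reported here.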

Additional observations from a re-analysis of the deposited data

How the results depend on the processing

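Against wild type, every one of the 17 alternatives kept the direction and the call of Sin3a, Sin3b and Ncor1 in both comparisons and of Hdac2 in the CBFA2T2 knockout. Of the values of the 9 genes in the 3 comparisons under these alternatives, 441 stayed on their side of the threshold, 7 gained a call and 11 lost one; those are Gps2, Hdac1 with Gm10093 added, Tbl1x and Hdac2. Leaving out a library, 4 to 6 of the 9 genes were called in the CBFA2T2 knockout and 3 to 5 in the libraries labelled PRDM14 knockout, and 4800 to 6829 and 3386 to 4970 of all genes. Between the knockouts 0 of the 9 were called under every alternative, while the 141 genes called overall became 24 (without CBFA2T2 knockout replicate 2) to 597 (without PRDM14-labelled replicate 2), 328 with no filter on low counts, 602 with the DESeq2 Wald test, 24 in a fit of only the groups compared and 392 with the replicate block; the cause was not tested.

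Same-numbered libraries correlated by 0.08, -0.01 and 0.10 between the CBFA2T2 knockout and wild type, by 0.06, -0.01 and 0.07 between the libraries labelled PRDM14 knockout and wild type, and by 0.06, 0.30 and 0.13 between the knockouts, in deviations from group means. The main fit did not pair libraries by number. However, 8 of 9 libraries correlated best with 1 of their own number, and what the numbers share was not tested. With the replicate block 6556 of all genes were called in the CBFA2T2 knockout, in place of 6367. In the libraries labelled PRDM14 knockout it was 5123 in place of 4941. With the replicate block the count of the 9 genes called was 5 in each comparison with wild type, and the permutation p of the Sin3a to Sin3b ratio was 0.0278, the smallest that design allows, or 0.111 adjusted over the 4 ratios, at the same difference of -1.23. Without 1 library the difference from wild type in the CBFA2T2 knockout was -1.28 to -1.17 for that ratio, 0.13 to 0.23 for Hdac1 to Hdac2 and 0.33 to 0.49 for Tbl1x to Tbl1xr1. Adding Gm10093 to Hdac1 was chosen after seeing the data. Read depth limits Gps2 the most, with 180 counts in the shallowest library.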
